A study of Drosophila melanogaster with 4 samples.

Results

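Chromatin immunoprecipitation followed by sequencing (ChIP-seq) of RNA polymerase II (Pol II) in *Drosophila melanogaster* embryos gave 432 enriched regions near centromeres and in heterochromatin, of 9885 regions listed for the genome. They were chosen by position alone. A region belonged to them when its midpoint lay in the 2 Mb at the centromere end of the sequence of arm 2L, 3L, 3R or X. Regions on 5 scaffolds of heterochromatin, 2LHet, 3LHet, 3RHet, XHet and YHet, belonged to them as well. How far each arm sequence ends from the centromere, and how much heterochromatin its 2 Mb holds, was not known here. The 4 windows may therefore differ in both. The arms contributed 395 regions, called proximal regions here, and the scaffolds 37. They are set against the 7308 regions in the rest of the same 4 arms. Arm 2R and 2RHet were not analysed here.

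The study had 4 samples, all from wild-type Oregon-R (Oregon-R-modENCODE) embryos aged 14 to 16 h. In 2 samples chromatin was precipitated with an antibody from abcam against Pol II, and the other 2 were inputs, one for each ChIP replicate. Fixation in all 4 was with formaldehyde at 1.8%. Whole embryos were used, so all tissues were mixed and a Pol II region cannot be traced to a cell type. The inputs had no lists of their own. There were 3 lists of regions, namely those of ChIP replicates 1 and 2 and a joint one for the set of replicates. The 432 regions were taken from the joint one, the whole-series list. Each region carried the authors' own score, on a log2 scale.

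Pol II transcribes the protein-coding genes, and its enrichment marks promoters and the bodies of transcribed genes. Heterochromatin is the compact, repeat-rich chromatin that flanks centromeres and makes up most of the Y chromosome. It carries methylated histone H3 and the protein HP1, and silences many genes placed next to it by rearrangement, a phenomenon known in flies as position-effect variegation. Heterochromatin nevertheless holds active genes of its own. The best studied on the left arm of the second chromosome is *light*, which encodes a protein of vesicle transport and is expressed poorly when moved away from heterochromatin. Genes could not be assigned to the regions below, whose coordinates are those of FlyBase release 5, so regions are given by position, without gene, exon or intron.

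Proximal Pol II regions were sparser than regions in the rest of the arms, and scaffold regions were far sparser still. The whole-series list had 49.4 regions per Mb in the 8 Mb of proximal sequence against 81.3 in the 89.9 Mb of the rest, a ratio of 0.607. In the replicate lists the densities were 25.6 ± 1.8 proximal regions per Mb and 42.8 ± 0.02 per Mb in the rest (SD, n = 2), a ratio of 0.60 ± 0.04 (SD, n = 2). The 5.99 Mb of scaffolds held 6.17 regions per Mb in the whole-series list and 2.34 in each replicate, from 14 regions in each. Scaffold density was thus 0.0759 times that of the rest of the arms in the whole-series list, and 0.0546 times in both replicates. Both deficits exceeded the spread between replicates. An exact two-sided sign-flip permutation test over 2 replicates cannot give less than p = 0.5, the value it gave for both, so no difference here can reach p = 0.05 over samples. No test was run over regions, which are not replicates. All densities were taken over full sequence lengths, with no allowance for gaps or repeats where reads may not be placed. Their part in the low counts was not tested, so fewer listed regions need not mean less Pol II.

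The deficit was not shared by all arms. It was deepest on 3L, with 9 and 10.5 proximal regions per Mb in replicates 1 and 2 against 45.8 and 44.8 in the rest of that arm, a ratio of 0.22 ± 0.03 (SD, n = 2). On the X the ratio was 0.37 ± 0.06, from 14 and 17.5 proximal regions per Mb against 42.4 and 42.7 (SD, n = 2). On 2L it was 0.577 ± 0.005, with 23.5 proximal regions per Mb in each replicate against 40.5 and 41.0 (SD, n = 2). These 3 ratios stood apart by more than their spread. Arm 3R went the other way, with 51 and 56 proximal regions per Mb against 42.3 and 42.6, a ratio of 1.26 ± 0.08 (SD, n = 2). With 3R left out, a choice made after its value was seen, the pooled ratio was 0.38 ± 0.03 over the replicates (SD, n = 2) and 0.420 over the whole series. The part of the genome covered by regions showed the same order. Regions of the whole-series list covered 4.62% of the proximal sequence of 3L, 6.72% of that of the X, 10.0% of that of 2L and 24.3% of that of 3R, against 19.8%, 19.5%, 17.5% and 19.3% in the rest of these arms. On the scaffolds they covered 1.07%.

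**Figure D1:**
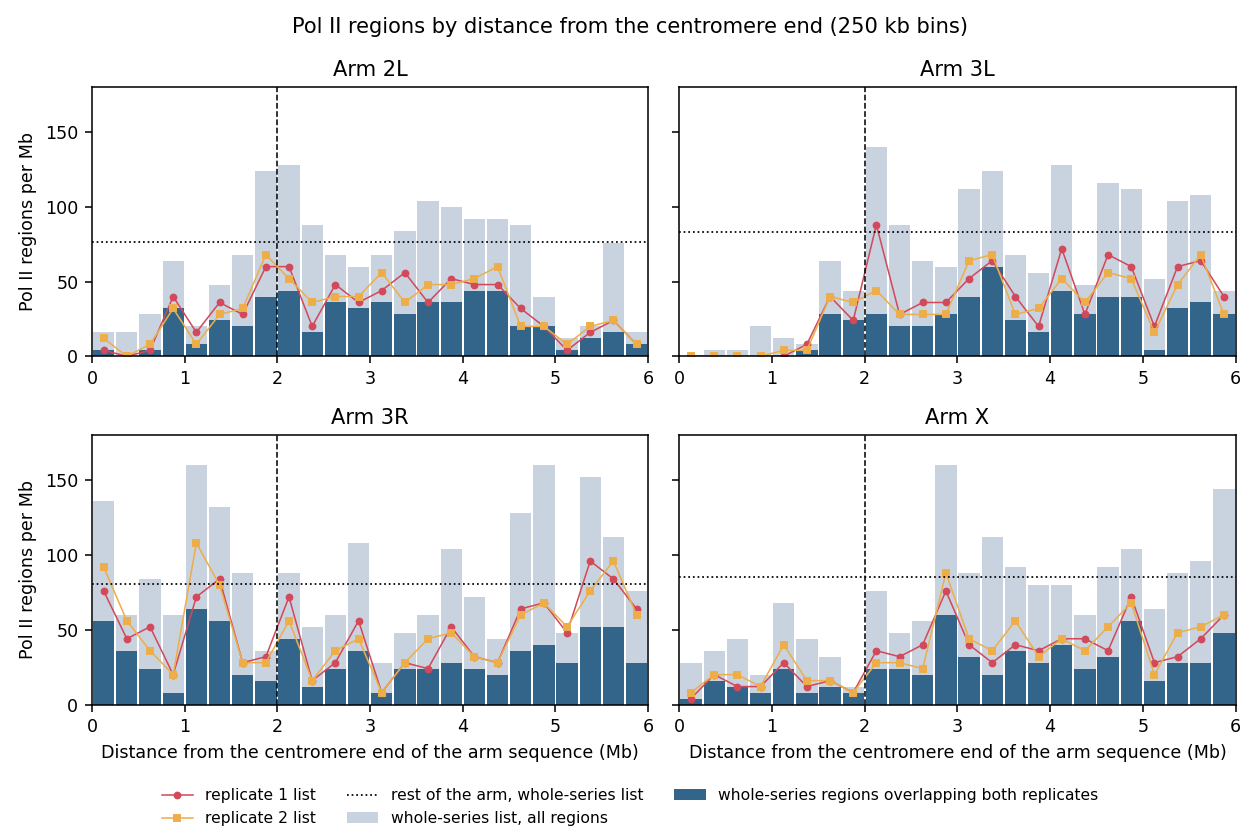
Density of Pol II regions (regions per Mb, in 250 kb bins) over the 6 Mb nearest to the centromere end of each arm sequence. Light bars show the whole-series list, dark bars its regions that overlap both replicates, and lines the replicate lists; the dashed line marks 2 Mb and the dotted line the whole-series density in the rest of the arm. Density was low at the centromere end on 2L and 3L and high at the very end of 3R. On the X the whole-series density stayed below the dotted line past the border, up to 2.75 Mb.

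Density changed with distance differently on each arm, as the plot of regions by distance shows. On 3L the last 1 Mb held 7 whole-series regions, none of which overlapped a region of either replicate, and the replicates listed no region there at all. The next 0.5 Mb held 5, and the 0.5 Mb beyond it, between 1.5 and 2 Mb from the end, held 27, of which 13 overlapped both replicates. Just outside the 2 Mb border 3L was dense, with 57 whole-series regions between 2 and 2.5 Mb. In regions per Mb the step from 1.5 to 2 Mb stood at 54, below the 83.2 of the rest of 3L, and the step outside the border at 114. On 2L the count was lowest at the end and highest at the border, with 8, 23, 17 and 48 regions over 4 steps of 0.5 Mb from the end outwards. On the X it did not climb within the window, with 16, 16, 28 and 11 regions over the same steps, and 31 in the next. On 3R the steps held 49, 36, 73 and 31 regions, and 23, 8, 30 and 9 of these overlapped both replicates. The step from 1 to 1.5 Mb was thus the richest of the 4 on 3R, at 146 regions per Mb in the whole-series list.

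The regions nearest to the centromere end show the same contrast. On 3R the first region of the arm ran from 3 to 2419, next to the first base of the sequence. It scored 1.15 in replicate 1 and 1.06 in replicate 2, and was 2169 and 2052 bp wide there. On the X the last region, 22413650 to 22416068, was centred 7.97 kb from the end and was also found in both replicates, with scores of 0.76 and 0.63. On 2L the last region, 22959722 to 22961702, was centred 50.8 kb from the end and was found in replicate 2 alone, with a score of 0.60. The last of 2L found in both, 22874034 to 22876024, was centred 137 kb from the end, with scores of 0.56 and 0.47. On 3L the last region of all, 24239863 to 24240890, lay 303 kb from the end and overlapped neither replicate. The last 3L region found in both, 23084080 to 23089546, was centred as far as 1457 kb from it. Pol II regions found in both replicates thus reached to within 10 kb of the sequence end on 3R and the X, and not on 2L or 3L.

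**Figure D2:**
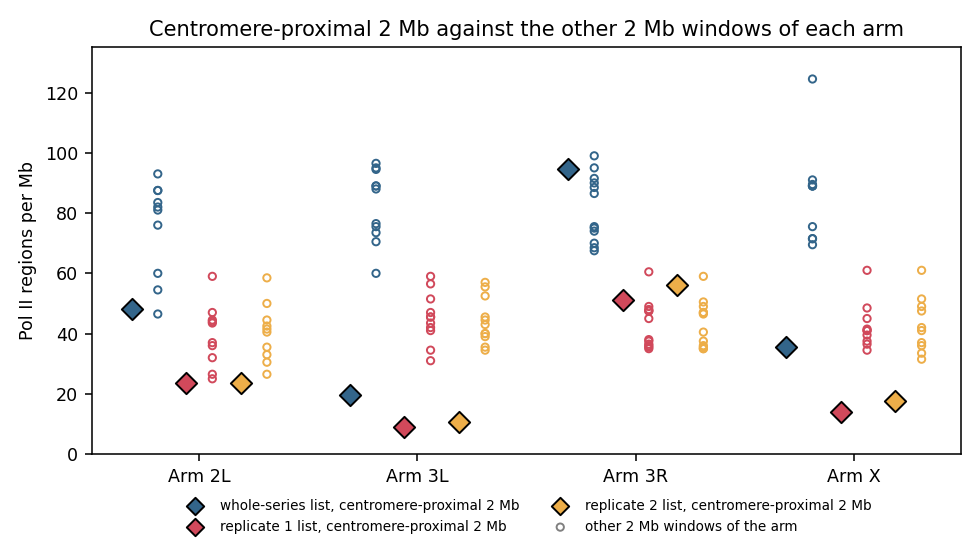
Density of Pol II regions (regions per Mb) in the 2 Mb at the centromere end of each arm sequence (diamonds) and in each other full, non-overlapping 2 Mb window of the same arm (open circles), for the whole-series list and for both replicate lists. The diamonds lie below all circles on 3L and the X in every list, at the lower edge on 2L, and near the top on 3R.

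Each arm was also divided into consecutive full windows of 2 Mb from its centromere end, with the remainder at the telomere end left out. The proximal window could thus be placed among windows of its own arm. On 3L it was the sparsest of 12 windows in all 3 lists. It held 39 whole-series regions, against 120 to 193 in the other windows of 3L. On the X it was the sparsest of 11, with 71 whole-series regions against 139 to 249. On 2L it was the sparsest of 11 in both replicates, with 47 regions in each against at least 50 and 53 in the other windows. In the whole-series list, however, the fourth window of 2L had 93 regions and the proximal one 96, so that sparse stretches of 2L were not limited to the centromere end. On 3R the proximal window, with 102 and 112 regions in replicates 1 and 2, took place 12 of 13 from the sparsest in both. The last full window on the telomere side of 3R, which did not reach the end of the sequence, held 95 and 98. These ranks describe the arms, and neighbouring windows are not independent.

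The longest stretches without a whole-series region were longer in the proximal windows of 3L and the X than in the rest of these arms, and long stretches also occurred elsewhere. The longest between proximal regions was 344 kb of the X, from 21502023 to 21845868, and ran from 577 to 921 kb from the sequence end. On 3L it was 308 kb, from 23335884 to 23644263. On 2L it was 163 kb, from 22480355 to 22643596, and on 3R no more than 78.5 kb, from 384749 to 463226. None of the 4 held a region of either replicate. In the rest of the arms the longest distance between neighbouring whole-series regions was 264 kb on the X, 157 kb on 3L, 156 kb on 2L and 184 kb on 3R, so the longest stretch was of like length in both parts of 2L and shorter in the proximal window of 3R. Distances over 100 kb between neighbours numbered 4 in the proximal window of 3L, 4 in that of the X, 3 in that of 2L and 0 in that of 3R, against 11, 10, 17 and 16 in the rest of these arms. Per Mb these were 2.0, 2.0, 1.5 and 0 in the proximal windows against 0.488, 0.490, 0.809 and 0.618 in the rest. In the replicate lists, over all 4 arms, they were 1.25 and 1.5 per Mb in the proximal windows against 1.46 and 1.42 in the rest. On the X they were 3.0 and 2.5 against 1.52 and 1.27, and on 2L 2.0 in each against 1.71 in each. On 3L the replicates went the other way, with 0 and 0.5 against 1.15 and 1.24. On 3R they had 0 and 1.0 against 1.47 in each. Such counts leave out the empty ends of the arms, among them the last 1 Mb of 3L, where the replicates had no region. Read depth is unknown, so an empty stretch shows the lack of a listed region and not the lack of Pol II.

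**Figure D3:**
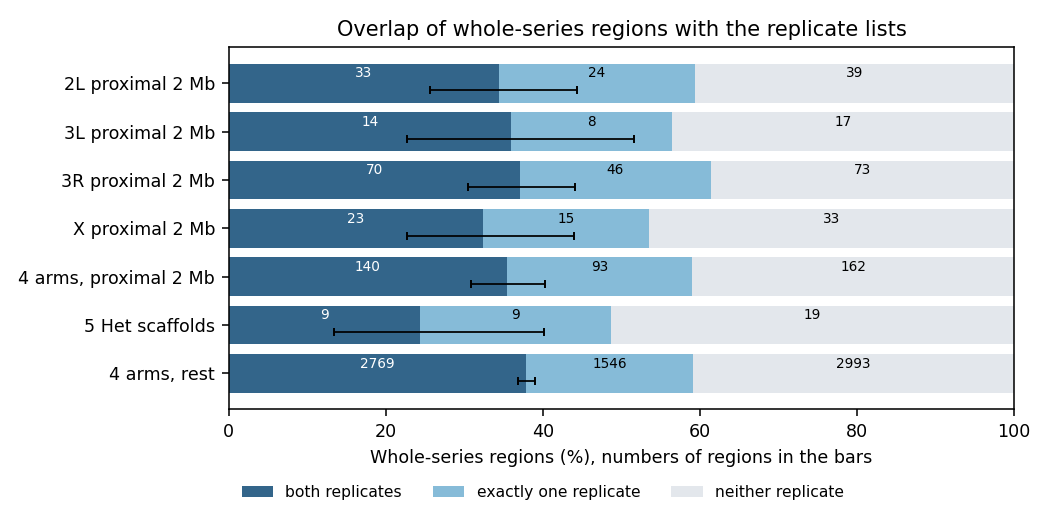
Share of whole-series regions (%) that overlap both replicate lists, exactly one or neither, for the proximal 2 Mb of each arm, the 4 proximal windows together, the 5 heterochromatin (Het) scaffolds and the rest of the 4 arms. Numbers in the bars are regions, and error bars are Wilson 95% intervals of the share found in both; the intervals of all proximal windows and of the scaffolds reach across the 37.9% of the rest.

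Although fewer, proximal regions overlapped replicate regions about as often as regions elsewhere. The joint list stands for the same ChIP samples as the replicate lists, so such overlap is not independent support. Of the 395 proximal regions, 140 overlapped a region in both replicates by at least 1 bp, which is 35.4% (Wilson 95% interval 30.9 to 40.3). In the rest of the arms the share was 37.9% of 7308. Another 93 proximal regions (23.5%) overlapped exactly one replicate, against 21.2% in the rest, and 162 (41.0%, interval 36.3 to 45.9) overlapped neither, against 41.0% in the rest. The shares found in both were 34.4% on 2L, 35.9% on 3L, 37.0% on 3R and 32.4% on the X, against 40.4%, 38.3%, 37.9% and 35.1% in the rest of each arm. All 4 were lower than in the rest of their arm, but the interval of each proximal share took in the value of the rest. These intervals cover counting error only.

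Proximal regions were sparser than regions in the rest of the arms in each class of support, though not to the same degree. Proximal regions found in both replicates had a density of 17.5 per Mb against 30.8 in the rest, a ratio of 0.568. For those found in exactly one replicate the ratio was 0.676, from 11.6 and 17.2 per Mb, and for those found in neither it was 0.608, from 20.3 and 33.3. On the scaffolds the corresponding ratios were 0.0487, 0.0873 and 0.0952, lowest for regions found in both replicates. They rest on 9, 9 and 19 scaffold regions. Seen from the replicate lists, 154 of 195 proximal regions of replicate 1 (79.0%, interval 72.7 to 84.1) overlapped a region of replicate 2, against 77.2% in the rest. For replicate 2 the share was 156 of 215 (72.6%, interval 66.2 to 78.1) against 77.0% in the rest. On the scaffolds it was 9 of 14 in each replicate.

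Over the 4 arms together, proximal regions were nearly as wide and scored nearly as high as regions elsewhere. Their median width was 1991 bp in replicate 1 and 2023 bp in replicate 2, against 2031 and 2053 bp in the rest of the arms, a difference of -35 bp ± 7 (SD, n = 2). Whole-series medians were 1851 bp for proximal regions and 1936.5 bp for the rest. The arms differed in this. In replicates 1 and 2 the width difference was -80.5 and -141 bp on the X and 30.5 and 13 bp on 3R. It changed sign between replicates on 2L, with -123 and 24 bp, and on 3L, with 69 and -26 bp. The median score was 0.69 and 0.65 in replicates 1 and 2 for proximal regions, against 0.70 and 0.69 in the rest, a difference of -0.03 ± 0.02 (SD, n = 2) on the log2 scale. The X differed most by score. Its proximal regions had a median of 0.72 and 0.63 in the replicates against 0.78 and 0.75 in the rest of the X, a difference of -0.09 ± 0.04 (SD, n = 2). On 2L, 3L and 3R the difference had opposite signs in the replicates, and its mean was smaller than its SD. When the whole-series regions of the 4 arms were sorted by score into 4 classes of nearly equal size, the proximal regions numbered 126, 93, 81 and 95 from the lowest to the highest class. Their density over that of the rest was 0.786, 0.570, 0.494 and 0.583 in the same order, so they were sparser in every class and least so in the lowest.

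**Figure D4:**
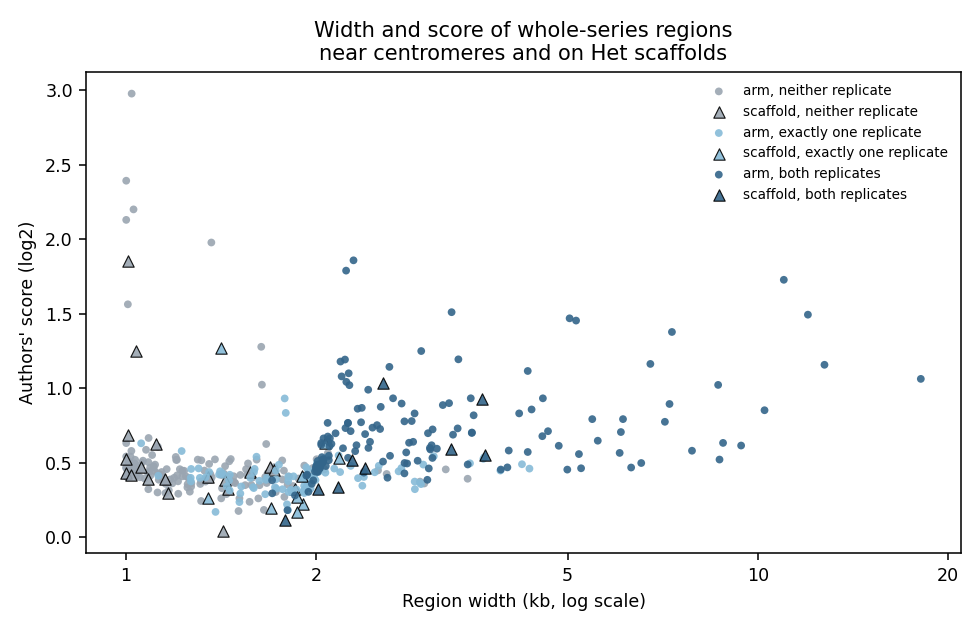
Width (kb, log axis) and the authors' score (log2) of the 432 whole-series regions near centromeres and on heterochromatin (Het) scaffolds. Circles are regions on the arms and triangles regions on scaffolds, coloured by overlap with both replicates, exactly one or neither. Regions found in both replicates are wider, and a few narrow regions found in neither hold the highest scores.

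The widest proximal regions lay on 3R. Regions of 5 kb or more, wide enough to span whole genes, made up 25 of the 395 proximal regions (6.33%) against 5.42% in the rest of the arms. On 3R they were 19 of 189 (10.1%) against 5.91% in the rest of 3R. On the X none of the 71 proximal regions was that wide, the widest being 4839 bp, against 92 of 1739 (5.29%) in the rest of the X. In the replicates the excess on 3R was smaller, with 7 and 6 such regions, or 6.86% and 5.36% of the proximal 3R regions of replicates 1 and 2, against 5.02% and 4.26% in the rest of 3R. In the proximal X neither replicate had one, against 3.58% and 3.32% in the rest of the X. In the whole-series list 3L had 4 of 39 (10.3%) against 5.49% in the rest of 3L, and 2L 2 of 96 (2.08%) against 4.84% in the rest of 2L. In replicates 1 and 2 the 3L shares were 5.56% and 9.52%, from 1 and 2 regions, against 3.59% and 3.56%. On 2L they were 2.13% in each, from 1 region, against 2.94% and 2.67%. A higher share than in the rest was thus not limited to 3R.

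All of the 5 widest proximal regions found in both replicates were on 3R. The widest, 262168 to 280262, was 18.1 kb in the whole-series list, a single region of 17497 bp in replicate 1, and 3 regions in replicate 2, the longest of them 12575 bp. The second, 1416519 to 1429257, was 12.7 kb and joined 2 regions of replicate 1, where replicate 2 had 1. The third, 901999 to 913991, was 11993 bp wide and joined 3 regions of replicate 2, where replicate 1 had 1. The fourth was the most alike in both, since 1916592 to 1927576 was a single region of 10764 bp in replicate 1 and of 11039 bp in replicate 2. The last, 1825035 to 1835274, was 10.2 kb and was broken into 3 and 2 regions. Except for the fourth, these domains were thus listed in parts in at least one replicate. How the lists were joined is not named, and its part in these widths was not tested. Below, a domain broken into parts is given the score of the part that shares most bases with it.

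Of the 10 highest-scoring proximal regions found in both replicates, 5 lay on 3R, 3 on 2L and 1 each on 3L and the X. The highest was on 3R, from 484251 to 486541, a region of 2.29 kb that scored 1.77 in replicate 1 and 1.97 in replicate 2. Its whole-series score was 1.86, and it ranked 46 there. It lay not far beyond the longest empty stretch of the 3R window, which ended at 463226. The second was on the X, from 20898179 to 20900408, with 1.71 and 1.87 in the replicates. The third was the domain of 3R that starts at 1916592, with 1.84 and 1.59. These 3 held places 53, 66 and 38 by score in replicate 1 and 30, 54 and 145 in replicate 2, and so ranked high over the whole genome in both lists.

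The other 7 showed how far single scores could differ between replicates. The 2L region from 21231473 to 21234747 scored 1.01 in replicate 1 and 1.96 in replicate 2, placed 916 and 35 in these lists. These were the scores farthest apart among the 10. On 3R, the region that starts at 901999 scored 1.73 and 1.85, and that from 71695 to 76728 scored 1.63 and 1.26. That from 203599 to 208752 scored 1.84 and 1.56. It was broken into 2 regions in replicate 1, where the 1.84 belongs to a part of 2297 bp. On 3L, 22658709 to 22666016 scored 1.37 and 1.47 over widths of 7104 and 7056 bp, and was the region just inside the 2 Mb border. On 2L, 21628029 to 21630960 scored 1.40 and 1.17, and 21050787 to 21054143, just inside the border of that arm, scored 1.18 and 1.29.

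**Figure D5:**
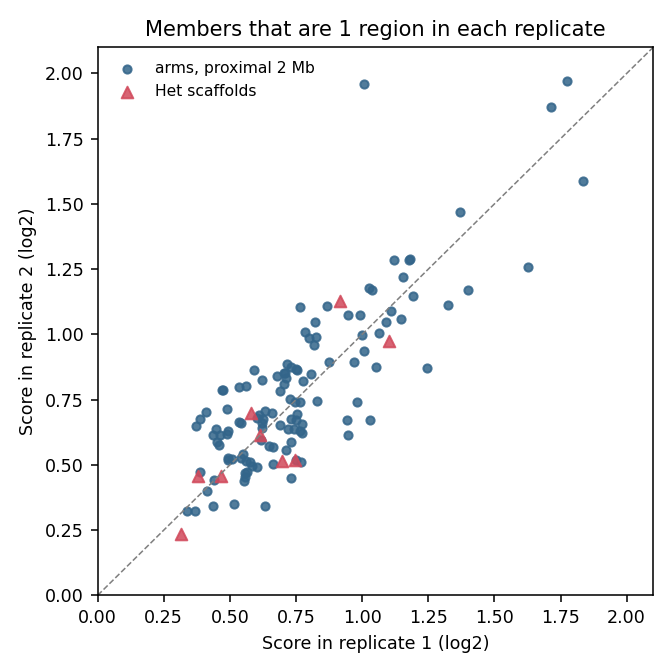
Authors' score (log2) in replicate 1 and in replicate 2 for the 119 proximal regions (circles) and the 9 scaffold regions (triangles) that are 1 region in each replicate list. The dashed line marks equal scores; most points lie close to it, and the 2L region with 1.01 and 1.96 lies farthest above it.

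Across the 119 proximal regions that were a single region in each replicate, replicate scores had a rank correlation (Spearman's rho) of 0.76 and a linear one (Pearson's r) of 0.82. Over 2437 such regions in the rest of the arms these were 0.77 and 0.84. These are descriptions across regions that share their libraries. The median difference between replicate scores was 0.12 in proximal regions and 0.11 in the rest. Edges were placed alike, with a median shift of 97 bp between the starts and of 78 bp between the ends, against 75 and 71 bp in the rest. A further 21 of the 140 proximal regions found in both replicates joined 2 or more regions of at least one replicate, against 332 of 2769 in the rest. Single regions in each replicate thus made up 85% of those found in both, against 88.0% in the rest.

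Some of the very highest scores of the whole-series list belonged to proximal regions without replicate support. Of the 395 proximal regions, 8 (2.03%) were among the 100 highest scores of the list, against 0.903% of regions in the rest of the arms. Of these 8, 5 overlapped neither replicate, which is 1.27% of proximal regions against 0.123% of regions in the rest, where 9 of the 66 highest did so. These 5 were 3R from 1984265 to 1985285 with a score of 2.98, 3L from 23976122 to 23977122 with 2.39, 3L from 24239863 to 24240890 with 2.20, 3R from 1168340 to 1169340 with 2.13 and 2L from 22270706 to 22272070 with 1.98. Of them 4 were 1001 to 1028 bp wide, at or near the narrowest width in the list, and the fifth was 1365 bp wide. No replicate region was narrower than 1301 bp, and the part that this difference in width between lists had in the missing overlap was not tested. Of the 162 proximal regions in neither replicate, 87 (53.7%) were narrower than any replicate region, against 54.3% in the rest of the arms.

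Pol II regions on the scaffolds were few but in part shared by both replicates. Of 37, 9 overlapped both replicates (24.3%, Wilson 95% interval 13.4 to 40.1), against 37.9% in the rest of the arms. Another 9 (24.3%) overlapped exactly one, against 21.2% in the rest. The other 19 (51.4%, interval 35.9 to 66.6) overlapped neither, against 41.0% in the rest. The intervals of the share in both and of the share in neither take in the values of the rest. All 9 regions found in both were a single region in each replicate. None of the 37 was 5 kb or wider, and the widest had 3699 bp. In the rest of the arms 5.42% of whole-series regions were that wide, so a count of 37 says little on this. Their median score was 0.63 and 0.52 in replicates 1 and 2, against 0.70 and 0.69 in the rest of the arms, a difference of -0.12 ± 0.07 (SD, n = 2) over 14 scaffold regions in each.

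Scaffold 3LHet, 2.56 Mb long, carried the most, with 19 regions, of which 5 were found in both replicates. The strongest of these was 2396791 to 2400449, 3.66 kb wide, with scores of 0.92 in replicate 1 and 1.13 in replicate 2. It was the last region of the scaffold, 155 kb from its end. The other 4 formed 2 pairs. One pair, 594668 to 597059 and 605579 to 607853, scored 0.70 and 0.51, and 0.61 in both replicates. The other, 701135 to 703297 and 708246 to 710259, scored 0.47 and 0.46, and 0.38 and 0.46. Regions of 3LHet found in one replicate were 410540 to 412605, 2189703 to 2191608 and 2242818 to 2244679, all in replicate 2 with scores of 0.84, 0.32 and 0.27, and 1882677 to 1884091, in replicate 1 with 1.72. That last region held place 63 by score in replicate 1 and had no counterpart in replicate 2. Of the 10 regions in neither, 1167905 to 1168913, 1009 bp wide, had the highest score, 1.85.

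Scaffold 3RHet, 2.52 Mb long, had 9 regions, all of them beyond the first 1.51 Mb. Near the end of the scaffold, 3 regions lay side by side between 2473307 and 2482300. The first of them, 2473307 to 2475856, scored 1.10 in replicate 1 and 0.97 in replicate 2. The next, 2476553 to 2478449, was found in replicate 1 alone, with 0.64. The third, 2478602 to 2482300, scored 0.75 and 0.52, and was 3564 bp wide in replicate 1 and 1430 bp in replicate 2. The remaining region found in both, 2379636 to 2381423, had low scores, 0.31 and 0.23. Replicate 1 alone had 1704965 to 1706829 and replicate 2 alone 1822833 to 1824530. The other 3, which start at 1511591, 1898015 and 2373576, were in neither, and the last of them had the lowest score of the whole-series list, 0.037.

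The 3 short scaffolds held 9 regions, of which 1 was found in both replicates. This was 166573 to 169839 of 2LHet, 3.27 kb wide, with scores of 0.58 in replicate 1 and 0.70 in replicate 2. The other 4 regions of 2LHet lay close together between 27247 and 37339, and of them 31921 to 33270 alone overlapped a replicate, replicate 1, with 0.51. XHet had 3 regions between 49557 and 68568. The middle one, 60049 to 62223, was found in replicate 2 with a score of 0.65, and the others in neither. YHet had a single region, 26123 to 27161, 1039 bp wide with a whole-series score of 1.25, and neither replicate listed a region on this scaffold. The Y is present in male embryos alone, and its known protein-coding genes are expressed mainly in the male germ line.

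Pooled over the 4 arms, proximal regions lay about as close to their neighbours as regions elsewhere, but the arms differed and 3R gave 188 of the 391 proximal distances. The median distance from one whole-series region to the next was 3833 bp in the proximal windows against 3587 bp in the rest of the arms, and 71.6% of proximal neighbours lay within 10 kb of each other against 74.6%. In the replicate lists the share within 10 kb was 51.8% and 55.9% in proximal windows and 51.3% and 50.6% in the rest. On the scaffolds the median distance was 31.9 kb, and 12 of 32 neighbours lay within 10 kb. By arm, the proximal median was 9301 bp on 3L against 3833 bp in the rest of 3L, 4761 bp on the X against 3309.5 bp, 3865 bp on 2L against 3710 bp, and 3206 bp on 3R against 3555 bp. The share within 10 kb was 52.6% against 74.7% on 3L, 65.7% against 76.6% on the X, 68.4% against 73.0% on 2L and 79.3% against 74.1% on 3R. On the X the replicates were far apart, with proximal medians of 21570 bp in replicate 1 and 9708 bp in replicate 2 against 9542.5 and 9499.5 bp in the rest. On 3L they were 11042 and 8446 bp against 9240 and 9473 bp. The 3L medians of the lists cover different stretches. The replicates had no region in the last 1 Mb of 3L, whereas the whole-series list had 7 there. The replicate medians therefore leave out that empty stretch and do not measure how sparse the window was.

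The regions on either side of the 2 Mb border differed from arm to arm. On 2L the region just outside ran from 21008135 to 21009141 and overlapped neither replicate, and on 3L the one just outside, 22521297 to 22522306, did not either. On 3R the region just inside was the narrow one at 1984265, in neither replicate and with the score of 2.98, and the one just outside, 2012135 to 2014047, overlapped replicate 2. On the X the region just inside, 20564542 to 20566476, overlapped both replicates, and that just outside, 20394854 to 20396564, overlapped replicate 1. Assigning regions by any overlap with the window in place of the midpoint left every count of proximal regions as it was.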

How the data were processed

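Regions of significant enrichment were called by the authors, one list per ChIP replicate and one for the replicate set, per the file headers on FlyBase release 5. Bowtie 0.12.7 is named in the submitters' processing notes. Neither the region caller and its threshold, nor the joining of replicates, read depth and the handling of repeats, is named in what was used here. The score that the authors deposited with each region is a log2 value with no stated formula. Its base was read from ties. Of 190 differences between the 20 most repeated whole-series scores, 28 matched log2 of a quotient of integers no larger than 32 (tolerance 1e-06), while natural and base-10 logarithms gave no match. Scores were compared within a list, and between the replicate lists only for one and the same region.

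Regions were assigned by midpoint to the 2 Mb at the end of 2L, 3L and X or at the start of 3R, to the 5 scaffolds, or to the rest of the 4 arms. Support was an overlap of at least 1 bp. Replicate lists gave means with the SD over the 2 ChIP replicates. Since the labels do not say whether these came from separate collections, their spread may be technical. Shares have Wilson 95% intervals. The assignment and overlap steps were tested on simulated lists with planted densities and returned them.

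The regions named are the 10 highest-scoring and 5 widest proximal regions in both replicates, every scaffold region, the 5 highest-scoring proximal regions in neither, the region nearest to each centromere end, and the longest empty stretch of each window. The last regions in both replicates, those at the border, the windows of each arm and the counts among the 100 highest scores were added later. Members and rules were chosen with earlier results of these data known. No gene names were taken from the gene table, which follows release 6. Computations ran in Python 3.11.15 with pandas 2.3.3, numpy 2.4.6 and scipy 1.17.1, and figures were drawn with matplotlib 3.10.9.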

Additional observations from a re-analysis of the deposited data

How the results depend on the processing

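The lists give no read depth, and what depth limits could not be assessed. Of 64 values recomputed under other settings, 34 moved by less than the spread between replicates or stayed within their interval, 28 moved by more and 2 changed sign. All 40 recomputed density ratios stayed on their side of 1. The settings without 3R and with regions in both replicates alone were chosen after seeing the data. With a 1 Mb window the proximal density ratio was 0.482 over the 4 arms, 0.407 on 2L, 0.0864 on 3L and 1.05 on 3R, and the median width difference -167.5 bp. With 3 Mb the ratio was 0.750 over the 4 arms, 0.796 on 2L, 0.510 on 3L and 0.611 on the X, and the width difference -65 bp. With the upper part of the list alone, cut at its median score, the ratio was 0.532 over the 4 arms, 0.556 on 2L, 0.269 on 3L, 1.03 on 3R and 0.0522 on the scaffolds. The share of proximal regions in both replicates was then 64.4% (62.5% in the rest of the arms), the width difference 29 bp and the score difference 0.022, both with the sign turned; this setting selects on the score, and the cause was not tested. With regions of at least 1301 bp, the ratio was 0.658 on 2L, 0.201 on 3L and 0.0701 on the scaffolds, the share in both replicates 46.4% (49.8% in the rest) and the width difference -76 bp. Merging within 500 bp gave 0.0860 on the scaffolds. Regions in both replicates alone gave 0.532 on 2L and 0.0487 on the scaffolds. Without 3R the pooled ratio was 0.420 and the width difference -132 bp. The share in both replicates was 30.4% under a reciprocal overlap of 50% (31.4% in the rest) and 40.5% with replicate regions extended by 500 bp (41.1%). Leaving out a replicate, so that support by the other was enough, gave 45.1% to 49.4% of proximal and 35.1% to 37.8% of scaffold regions, against 48.3% to 48.7% in the rest. In the replicate lists, leaving out one gave proximal density ratios of 0.570 to 0.628 over the 4 arms. No paired analysis was possible because only ChIP samples have lists, and inputs do not.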

Other observations

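Nearly all replicate regions were taken up by the whole-series list, near centromeres as elsewhere. Of those listed by replicate 1, 195 of 195 proximal and 13 of 14 scaffold regions overlapped it, and of those listed by replicate 2, 213 of 215 and 14 of 14. In the rest of the arms it was 3800 of 3844 (98.9%) for replicate 1 and 3831 of 3847 (99.6%) for replicate 2. The exceptions were 3LHet from 1349365 to 1350799 in replicate 1, with a score of 0.88, and in replicate 2 the region of 3R from 758423 to 759842, with 0.57, and that of the X from 22391428 to 22392834, with 0.64. The last of these was centred 30.7 kb from the end of the X sequence.

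The most repeated score of the whole-series list, 0.39, was shared by 109 regions of the list. Among them were 3 of the 395 proximal regions (0.759%), all found in neither replicate, and 0 of the 37 scaffold regions, against 84 of 7308 (1.15%) in the rest of the arms, of which 58 were in neither replicate.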
